A study of Mus musculus with 2 samples.

Results

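Ribosome footprints of 10 genes of astrocytes and radial glia were followed in brain from newborn mice: Apoe, Clu, Slc1a2, Slc1a3, Fabp7, Glul, Sparc, Sparcl1, Mt3 and Aqp4. The genes were chosen by name, and each was represented by the transcript with the highest count summed over both libraries. All 10 were found among the 45578 genes of the deposited table, and all 10 passed a minimum mean of 10 counts per library. The material was whole brain at postnatal day 5 from mice of the Taiwanese strain of spinal muscular atrophy on an FVB background. These mice serve as controls: they keep 1 functional allele of mouse Smn and carry the human SMN2 transgene on 1 allele (Smn+/-; SMN2tg/0). The study has 1 group of 2 libraries and no second genotype, age or treatment. The titles number the libraries as replicates, and the description of the series speaks of extracts from a mouse in biological duplicate. Whether each library came from a separate mouse is not clear in the sources used here. Each library holds fragments protected by ribosomes that were captured with RiboLace, in which beads carrying a puromycin analogue bind ribosomes engaged in translation.

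Astrocytes clear glutamate from synapses, turn it into glutamine, supply lipoproteins to neurons and regulate water and ions around vessels. They arise from radial glia, the stem cells that line the ventricles of the developing brain, and around birth many radial glia change into astrocytes. Glial genes such as Fabp7 and Slc1a3 are already active in radial glia, whereas Slc1a2 and Aqp4 are known to increase as astrocytes mature. Several of these genes are not confined to astroglia: Apoe is also made by microglia, Sparc by endothelium and microglia, Sparcl1 by endothelium and some neurons, and Clu by choroid plexus, ependyma and some neurons.

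Replicate 1 held 343552 counts at gene level and replicate 2 held 120282, so a value of replicate 2 has the larger counting error. A count stood for 2.71 CPM (the count scaled to the effective library size) in replicate 1 and 8.93 CPM in replicate 2. Brain tissue was evident in the markers: all 8 neuronal markers passed the count minimum, with Stmn2, a microtubule regulator of growing axons, the densest. The defining astrocyte marker Gfap, an intermediate filament protein, had 49 and 17 counts in the libraries, and Aldh1l1, a folate enzyme of astrocytes, had 45 and 11. They belong to a list of 36 other astroglial genes, of which 25 passed the count minimum. S100b of that list, with 6 and 1 counts, did not. Gfap, Aldh1l1 and S100b were picked out after their values were seen. Footprints of all 10 genes were present in both libraries beside these markers.

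Levels of different genes are given as footprint density, the CPM per 1000 nucleotides of the coding sequence. The count used is the one given for the whole transcript, and fragments in untranslated regions were not separated out. Fabp7 was the densest of the 10 and Slc1a2 the least dense in both libraries, with an 11.0-fold range in replicate 1 and an 18.7-fold range in replicate 2. By mean density the order was Fabp7, Mt3, Apoe, Sparcl1, Sparc, Slc1a3, Glul, Clu, Aqp4 and Slc1a2. The 10 genes lay above the median density of the 4294 protein-coding genes that were ranked, which was 62.3, and their own median was 315. In the ranking by mean density 5 of the 10 lay in the top 10 percent of those genes. In a whole-brain lysate, fewer cells of a type and less footprint RNA per cell cannot be told apart.

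**Figure D1:**
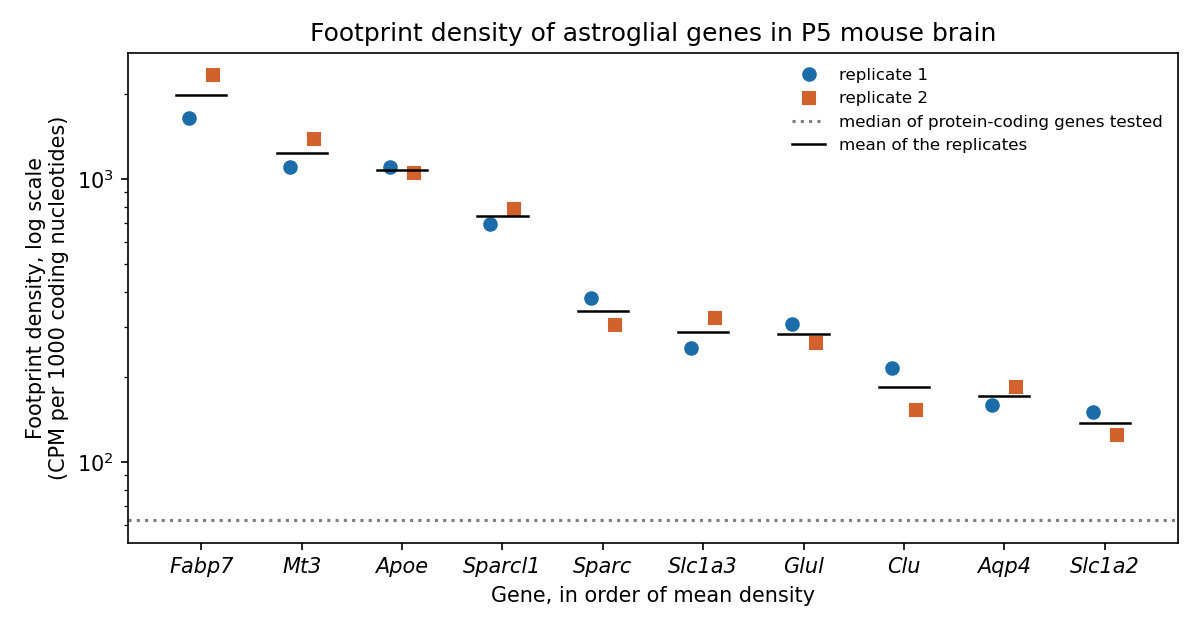
Footprint density in CPM per 1000 coding nucleotides (log scale) of the 10 astroglial genes, with circles for replicate 1, squares for replicate 2, bars for their mean and a dotted line at 62.3, the median of the protein-coding genes tested. Fabp7 stands highest and Slc1a2 lowest in each library, and all points lie above the dotted line.

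The glutamate transporters and glutamine synthetase, the genes of glutamate uptake, were in the lower part of this order. Slc1a3 (ENSMUSG00000005360), the glutamate and aspartate transporter of radial glia and young astrocytes, had 152 counts in replicate 1 and 59 counts in replicate 2 over a coding sequence of 1632 nucleotides. That is 0.0931 and 0.0362 counts per coding nucleotide, or densities of 252 and 323. Replicate 2 was the higher library, and the mean density was 288 ± 49.8 (SD, n = 2). Slc1a2 (ENSMUSG00000005089), the main glutamate transporter of the mature forebrain, had 95 and 24 counts over 1719 coding nucleotides. That is 0.0553 and 0.0140 counts per coding nucleotide, or densities of 150 and 125. Replicate 1 was the higher library here, and the mean was 137 ± 17.7 (SD, n = 2). Slc1a3 was denser than Slc1a2 by 1.69-fold in replicate 1 (exact 95% interval 1.30 to 2.2) and by 2.59-fold in replicate 2 (1.59 to 4.35), and the values of the libraries did not overlap between the genes. All such intervals come from counts within a single library, so they cover counting error only and leave out variation between libraries. They can be too narrow even for counting error, because PCR copies of a fragment are not independent molecules.

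Glul (ENSMUSG00000026473), glutamine synthetase, had 127 and 33 counts over 1122 coding nucleotides, or 0.113 and 0.0294 counts per coding nucleotide. Its densities of 307 and 263 gave a mean of 285 ± 31.2 (SD, n = 2), with replicate 1 the higher. Glul and Slc1a3 could not be ordered: Slc1a3 had 0.82 times the density of Glul in replicate 1 (0.65 to 1.05) and 1.23 times in replicate 2 (0.79 to 1.94). Glul was denser than Slc1a2 in both libraries, by 2.05-fold (1.56 to 2.70) and 2.11-fold (1.21 to 3.72).

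Other transporters of the Slc1a family were lower than Slc1a3. Slc1a4, a neutral amino acid transporter, had 73 and 16 counts and densities of 124 and 89.4. Slc1a1, the glutamate transporter of neurons, had 33 and 6 counts and densities of 56.9 and 34.1. Slc1a3 was denser than Slc1a4 by 2.04-fold in replicate 1 (1.53 to 2.74) and 3.61-fold in replicate 2 (2.05 to 6.73). For Slc1a2 the ratio to Slc1a4 was 1.21 (0.88 to 1.67) and 1.40 (0.71 to 2.81), so their order was not resolved at this depth. Slc1a2 did exceed Slc1a1, by 2.63-fold (1.75 to 4.04) and 3.66-fold (1.46 to 10.9). Slc1a5 and Slc1a6 had at most 10 counts in a library, and Slc1a7 had 1 count in all.

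The partner genes of the glutamate and glutamine cycle lay mainly below Slc1a2, with a median density of 92.7. Of the 12 genes listed, 11 passed the count minimum and 3 had a mean density above that of Slc1a2. The densest was Got2, the mitochondrial aspartate aminotransferase, with 100 and 29 counts and a mean density of 205 ± 6.58 (SD, n = 2). None of the 11 differed between the libraries in the test described below, either after adjustment or at an unadjusted p under 0.05. Of all genes tested, 4.14% and 9.6% did, and of protein-coding genes 0.956% and 5.62%.

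Apoe and Clu, the secreted lipid carriers, stood far apart from each other. Apoe (ENSMUSG00000002985), apolipoprotein E, the main apolipoprotein that astrocytes secrete, had 380 and 110 counts over 936 coding nucleotides. That is 0.406 and 0.118 counts per coding nucleotide, and densities of 1100 and 1049. The libraries were close for this gene, with a mean of 1075 ± 35.9 (SD, n = 2). Clu (ENSMUSG00000022037), clusterin, a secreted chaperone also called apolipoprotein J, had 107 and 23 counts over 1347 coding nucleotides, or 0.0794 and 0.0171 counts per coding nucleotide. Its densities were 215 and 152, with replicate 1 the higher and a mean of 184 ± 44.4 (SD, n = 2). Apoe was denser than Clu by 5.11-fold in replicate 1 (4.11 to 6.4) and 6.88-fold in replicate 2 (4.36 to 11.3).

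Genes that lipidate or bind apolipoproteins were sparse beside Apoe. Of the 13 apolipoproteins, lipidation genes and receptors listed, 5 passed the count minimum, none of the 13 reached the density of Slc1a2, and Apoa1 and Apob had no count. No count in either library allows a share of coding counts up to 0.00107% in replicate 1 and 0.00341% in replicate 2. The densest was Lrp1, a large endocytic receptor for Apoe, with 262 and 102 counts over 13638 coding nucleotides and a mean density of 59.4 ± 10.4 (SD, n = 2). Abca1, the cholesterol exporter that loads Apoe with lipid, had 34 and 10 counts and densities of 13.6 and 13.2. Apod, a lipid carrier of glia and the one apolipoprotein of the list past the minimum, had 21 counts in replicate 1 but 1 in the other library. Abca1 and Apod were chosen after their values were seen. At an unadjusted exact binomial p under 0.05, 2 of the 5 differed between the libraries, Apod among them. The share was 9.6% over all genes tested and 5.62% over protein-coding genes. None of the 5 differed after adjustment, against 4.14% of all genes tested and 0.956% of protein-coding genes.

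Fabp7 (ENSMUSG00000019874), brain lipid-binding protein, carries fatty acids inside radial glia and young astrocytes. It had 243 and 104 counts over 399 coding nucleotides, or 0.609 and 0.261 counts per coding nucleotide. The densities were 1650 and 2328, with replicate 2 the higher and a mean of 1989 ± 479 (SD, n = 2). Only 26 of the 4294 ranked protein-coding genes had a higher mean density. Its direct neighbours in that ranking were Ptms, the small acidic nuclear protein parathymosin, at 2032 ± 594 (SD, n = 2) and Cfl1, the actin-severing protein cofilin, at 1982 ± 428 (SD, n = 2). The rank of Fabp7 rests on the shorter of its annotated coding sequences. The other isoform, with 567 coding nucleotides, had 199 and 81 counts. When every gene took its longest coding isoform and scaling was redone, Fabp7 had a mean density of 1149. That was below Mt3, which had 1280 under the same setting.

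Among the fatty acid binding proteins, Fabp7 was followed by Fabp5, the epidermal type that is also made in glia and neurons. Fabp5 had 130 and 41 counts and densities of 863 and 897. Fabp7 exceeded it by 1.91-fold in replicate 1 (1.54 to 2.38) and 2.59-fold in replicate 2 (1.79 to 3.82). Fabp3, the heart type, had 38 and 15 counts and densities of 256 and 333. Fabp1 and Fabp2, the liver and intestinal types, had no count, and Fabp4, the adipocyte type, had 1.

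Mt3 (ENSMUSG00000031760), the zinc- and copper-binding metallothionein of the brain, has the shortest coding sequence of the 10, with 207 nucleotides. Its transcript had 84 and 32 counts, or 0.406 and 0.155 counts per coding nucleotide. Its densities were 1100 and 1380, with replicate 2 the higher and a mean of 1240 ± 199 (SD, n = 2). Mt3 and Apoe could not be ordered, with a density ratio of 1.00 in replicate 1 (0.78 to 1.27) and 1.32 in replicate 2 (0.86 to 1.97). Dividing by the whole transcript of 538 nucleotides would lower Mt3 to 477, since its coding sequence is a small part of its transcript.

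The inducible metallothioneins were less dense than Mt3. Mt1 had 51 and 15 counts and densities of 743 and 720, and Mt2 had 41 and 17 counts and densities of 597 and 816. Mt3 exceeded Mt1 by 1.48-fold (1.03 to 2.14) and 1.92-fold (1.01 to 3.81). Against Mt2 it was 1.84-fold denser in replicate 1 (1.25 to 2.74), and in replicate 2 the interval of the 1.69-fold ratio included 1 (0.91 to 3.25). Mt4, a metallothionein of squamous epithelia, had no count. Metallothionein genes are alike in sequence, and how far they share fragments was not tested.

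The matricellular proteins Sparcl1 and Sparc are secreted by glia and have opposing known effects on synapse formation, which Sparcl1 (hevin) promotes and Sparc restrains. Sparcl1 (ENSMUSG00000029309) had the most counts of the 10 genes, with 502 in replicate 1 and 171 in replicate 2 over 1953 coding nucleotides. That is 0.257 and 0.0876 counts per coding nucleotide, and densities of 697 and 782. Replicate 2 was the higher, and the mean was 739 ± 60.3 (SD, n = 2). Sparc (ENSMUSG00000018593) had 127 and 31 counts over 909 coding nucleotides, or 0.140 and 0.0341 counts per coding nucleotide. Its densities of 379 and 305 gave a mean of 342 ± 52.4 (SD, n = 2), with replicate 1 the higher. Sparcl1 was denser than Sparc by 1.84-fold in replicate 1 (1.51 to 2.25) and 2.57-fold in replicate 2 (1.74 to 3.90).

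Of the 6 other genes of the SPARC family, Spock2, a proteoglycan of neurons and glia also called testican, was the densest with 184 and 63 counts and densities of 392 and 442. Sparcl1 exceeded Spock2 by 1.78-fold (1.50 to 2.12) and 1.77-fold (1.32 to 2.40). Sparc and Spock2 could not be ordered, with ratios of 0.97 (0.76 to 1.22) and 0.69 (0.43 to 1.07). Spock1, Spock3, Smoc1, Smoc2 and Fstl1 had mean densities below that of Sparc, and Smoc2 was the lowest with 3 counts in replicate 1 and 0 in replicate 2.

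Aqp4 (ENSMUSG00000024411), the water channel of astrocyte endfeet, had the fewest counts of the 10, with 57 in replicate 1 and 20 in replicate 2 over 972 coding nucleotides. That is 0.0586 and 0.0206 counts per coding nucleotide, and densities of 159 and 184. Replicate 2 was the higher, and the mean was 171 ± 17.6 (SD, n = 2). Aqp4 was the aquaporin with by far the most footprints. Aqp1, the water channel of choroid plexus, had 8 and 1 counts, Aqp7 had 3 and 1, and Aqp9 and Aqp11 had 1 count each. Aqp3, Aqp5, Aqp8 and Aqp12 had none. Aqp4 exceeded Aqp1 by 5.94-fold in replicate 1 (2.82 to 14.4), and in replicate 2 the ratio of 16.7 rests on 1 count of Aqp1 (2.67 to 691).

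The order of the 10 genes was read against the error of each library. Of the 45 pairs of genes, 41 were ordered alike in both libraries, and for 34 the interval of the density ratio lay above 1 in both. Of the 9 neighbouring pairs in the order, 3 met that mark: Fabp7 over Mt3, Apoe over Sparcl1, and Sparcl1 over Sparc. The ratio of Fabp7 to Mt3 was 1.50 (1.17 to 1.95) and 1.69 (1.12 to 2.59), and that of Apoe to Sparcl1 was 1.58 (1.38 to 1.81) and 1.34 (1.05 to 1.72). The 4 pairs that changed order between the libraries were Mt3 and Apoe, Sparc and Slc1a3, Slc1a3 and Glul, and Clu and Aqp4. Aqp4 and Slc1a2 kept their order, but their intervals included 1, at 1.06 (0.75 to 1.49) and 1.47 (0.77 to 2.78). Glul exceeded Clu in both libraries, with an interval that included 1 in replicate 2 alone, at 1.42 (1.09 to 1.86) and 1.72 (0.98 to 3.07).

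With a single group, the one comparison across samples is between the replicates, and it was tested for each of 5436 genes by a 2-sided exact binomial test of the counts with Benjamini-Hochberg adjustment. None of the 10 astroglial genes passed an adjusted p of 0.05, a threshold that 4.14% of all genes tested and 0.956% of the protein-coding genes tested passed. At an unadjusted p under 0.05, 1 of the 10 differed, against 9.6% of all genes and 5.62% of protein-coding genes. A test in edgeR with a preset biological coefficient of variation of 0.2 also called none of the 10 and 2.41% of all genes, and the binomial test on protein-coding genes alone called none of the 10 and 0.501% of those genes. The test compares the reads of these libraries, not conditions. The median log2 ratio of replicate 2 over replicate 1 was 0.049 for the 10 genes and 0.0041 for all genes tested, with 5 of the 10 higher and 5 lower in replicate 2.

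The gene with the unadjusted difference was Fabp7, which stood at 659 CPM in replicate 1 and 929 CPM in replicate 2. Its ratio was 1.41 (exact 95% interval 1.11 to 1.78), and its log2 ratio of 0.50 (counting SE 0.17) had an exact binomial p of 0.0042 and an adjusted p of 0.092. Under other settings its log2 ratio ranged from 0.29 with library totals (adjusted exact binomial p = 0.58) to 0.53 with isoforms summed (0.0016). A sum over isoforms counts a fragment several times. The ratios of the other 9 genes had intervals that included 1. The lowest belonged to Clu, at 290 and 205 CPM with a ratio of 0.71 (0.43 to 1.12) and an adjusted exact binomial p of 0.80. Apoe had the ratio nearest to 1, 0.95 (0.76 to 1.18), at 1030 and 982 CPM. Sparcl1 had the narrowest interval, 0.94 to 1.34 around a ratio of 1.12. Aqp4 had the largest counting SE, 0.37 on the log2 scale, so its interval of 0.66 to 1.95 leaves room for a change of either sign.

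**Figure D2:**
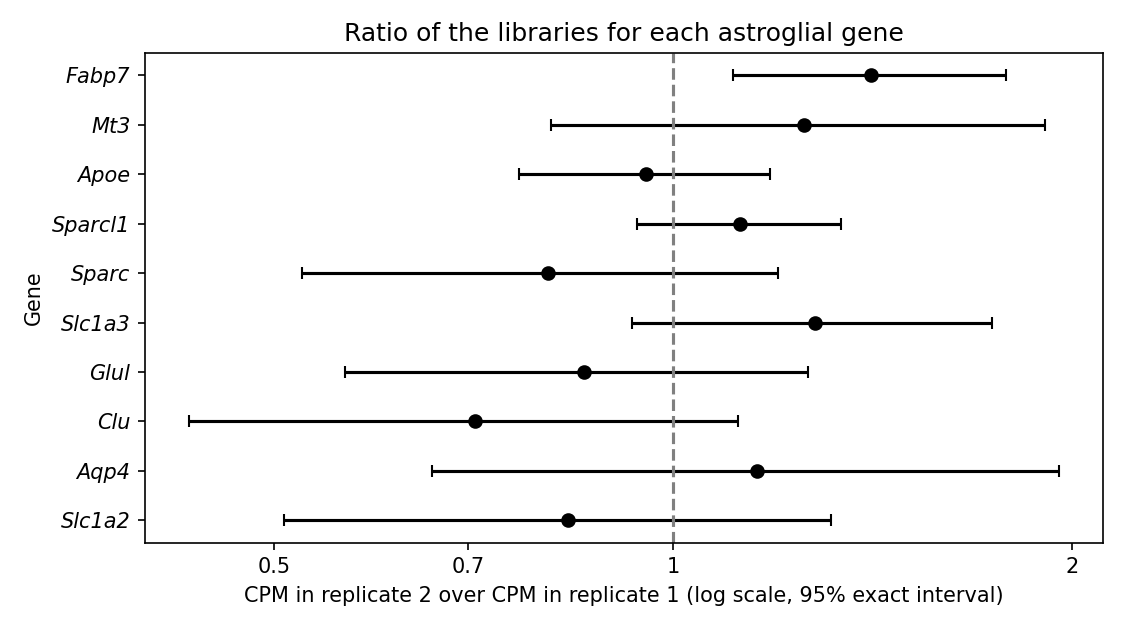
Ratio of CPM in replicate 2 over replicate 1 for each of the 10 astroglial genes (points, log axis) with exact 95% intervals that cover counting error, and a dashed line at 1. The interval of Fabp7, 1.11 to 1.78, is the one that does not include 1.

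Summed over the 10 genes, 1874 counts in replicate 1 and 607 in replicate 2 were astroglial by this list. They made up 0.670% of the counts of protein-coding genes in replicate 1 (exact 95% interval 0.640 to 0.701) and 0.690% in replicate 2 (0.637 to 0.747), a mean of 0.680% ± 0.014 (SD, n = 2). The intervals overlapped. Sparcl1, Apoe and Fabp7 together held 60.0% of the 10 genes' counts in replicate 1 and 63.4% in replicate 2. By count Sparcl1 was the highest and by density Fabp7, because the coding sequence of Sparcl1 is the longest of the 10.

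The isoforms show how a gene's count depends on the transcript chosen. The table lists 56 transcripts for the 10 genes, from 1 for Mt3 and Aqp4 to 12 for Slc1a2, and their counts sum to 3.06 times those of the chosen transcripts in replicate 1 and 2.71 times in replicate 2. A footprint was therefore taken to be counted for each transcript that it matched. Of 18 transcripts without a coding sequence, 15 had counts. The largest was a retained-intron transcript of Slc1a3 with 4435 nucleotides, which had 124 and 45 counts, or 81.6% and 76.3% of those of the coding transcript. Counts of isoforms thus cannot be added up or assigned to 1 transcript.

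Slc1a2 has the longest untranslated region of the 10, a 3' untranslated region of 9250 nucleotides. A shorter isoform with 1710 coding nucleotides and a 3' untranslated region of 209 had 85 and 20 counts, against 95 and 24 for the long one. The long isoform, with 9629 more untranslated nucleotides, had 10 and 4 more counts. Per extra nucleotide these were 1.88% and 2.98% of the coding density of the gene. That was the lowest share in replicate 2 among the 5 isoform pairs of Slc1a2, Apoe and Sparc with nearly equal coding length. Whether the short isoform lies within the long one is not given, so where the additional counts fell was not tested. The short isoform had 89.5% and 83.3% of the counts of the long one. Dividing by the whole transcript would put Slc1a2 at 20.3 CPM per 1000 nucleotides in place of 137, and Aqp4, with a 3' untranslated region of 4057 nucleotides, at 32.8 in place of 171.

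Apoe is listed with 10 coding transcripts, 4 of which have the full 936 coding nucleotides. Those 4 had 344 to 380 counts in replicate 1 and 85 to 110 in replicate 2. The most counted transcript exceeded each of the other 3, and its excess was divided by its extra untranslated length. Per nucleotide this was 8.59% to 53.7% of the coding density in replicate 1 and 30.2% to 129% in replicate 2. The excess cannot be assigned to the extra nucleotides. Between transcripts with an equal 3' untranslated region, one with 177 nucleotides of 5' untranslated region had 344 and 85 counts. Another with 84 such nucleotides had more, 371 and 97. The transcripts with 216 to 696 coding nucleotides had counts roughly in proportion to that length in replicate 1. Replicate 2 was less even, with 61 counts for the transcript with 696 coding nucleotides and 83 for that with 695. In replicate 1 the 10 transcripts ranged from 0.352 to 0.424 counts per coding nucleotide, and in replicate 2 from 0.0876 to 0.119. The pair of full-length Sparc isoforms, which differ by 182 nucleotides of 5' untranslated region, had 127 counts each in replicate 1, and 31 and 29 in replicate 2. Per nucleotide of that difference, the difference in counts was 0% of the coding density in replicate 1 and 32.2% in replicate 2, the latter from 2 counts.

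Clu was less even. Its full-length transcript had 107 and 23 counts, while the other protein-coding transcripts, with 611 to 795 coding nucleotides, had 15 to 41 counts in replicate 1 and 2 to 7 in replicate 2. Per coding nucleotide these ranged from 0.0239 to 0.0655 in replicate 1 and from 0.0032 to 0.0104 in replicate 2, all below the 0.0794 and 0.0171 of the full-length transcript. A transcript of the nonsense-mediated decay class with 120 coding nucleotides had 22 and 1 counts, or 0.183 and 0.0083 per coding nucleotide, above the full-length value in replicate 1 and below it in replicate 2. Sparcl1 showed a smaller gap, with 0.191 and 0.0711 counts per coding nucleotide for its isoform of 717 coding nucleotides, against 0.257 and 0.0876 for the full-length one. Which part of each coding sequence the shorter isoforms cover is not given in the table.

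**Figure D3:**
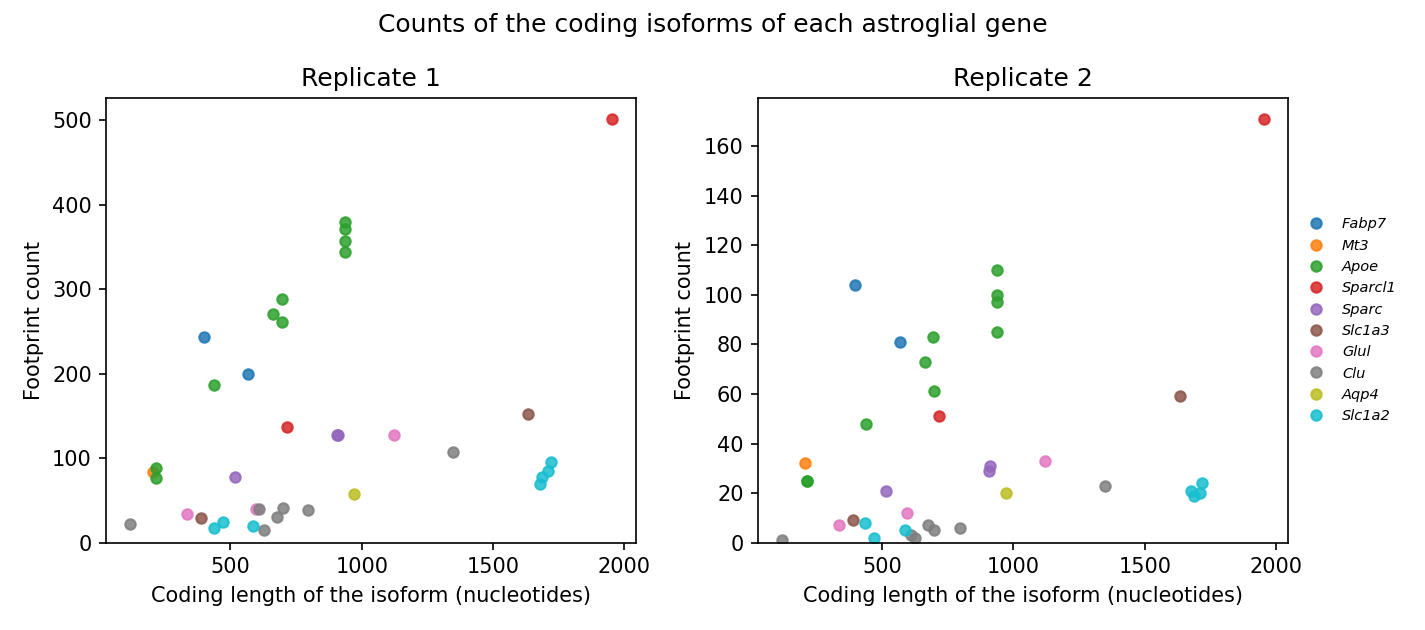
Footprint count of each isoform with a coding sequence against its coding length in nucleotides, with 1 colour per gene, for replicate 1 on the left and replicate 2 on the right. The Apoe isoforms tend to rise with coding length, up to 380 and 110 counts, and the longer Fabp7 isoform lies below the shorter one.

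Other genes known from astrocytes and radial glia gave a wide range below and among the 10. Of 36 such genes, 25 passed the count minimum, and 34 had a coding length for the transcript chosen. The densest was Cst3, the secreted protease inhibitor cystatin C, with 287 and 86 counts and a mean density of 1827 ± 16.4 (SD, n = 2). That was below Fabp7 and above Mt3. Of the 34, 9 were denser than Slc1a2 and 20 lay above the median of the ranked protein-coding genes, 62.3. Gfap, at a mean density of 110, was above that median, and Aldh1l1, at 40.6, was below it. The median density of the 34 was 75.2, against 315 for the 10. None of the 25 tested differed between the libraries after adjustment, against 4.14% of all genes tested and 0.956% of protein-coding genes. At an unadjusted exact binomial p under 0.05, 3 did, against 9.6% of all genes and 5.62% of protein-coding genes. Nes, the intermediate filament protein nestin of neural stem cells, and Pax6, a transcription factor of radial glia, had at most 6 counts in a library and were below the count minimum. Hes5 (4 and 1 counts) and Hopx (6 and 3) were below it too. Other genes of the list passed it, such as Vim (89 and 26), Ptprz1 (325 and 87), Sox2 (33 and 11) and Sox9 (33 and 15). All of these genes, with Nes and Pax6, were chosen after their values were seen.

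Markers of the other cell types that express Apoe, Sparc, Sparcl1 or Clu were measured beside them. The 10 microglial markers had 100 and 33 counts, or 0.036% and 0.038% of coding counts, with summed densities of 251 and 287, and none was at 0 in both libraries. Of the 10, 2 passed the count minimum. The densest was C1qc, a complement subunit, at 52.6 ± 27.9 (SD, n = 2). That value rests on 9 and 6 counts, below the minimum. The 7 endothelial markers had 62 and 29 counts and summed densities of 145 and 224, with none at 0 in both. Only Cldn5, a tight-junction protein and the densest at 146 ± 43.3 (SD, n = 2), passed the count minimum. The 8 markers of pericytes and meninges had 261 and 110 counts and summed densities of 529 and 594, and 5 passed the count minimum. Igf2, a growth factor, was the densest at 299 ± 37.3 (SD, n = 2). In that list Col1a1, a chain of collagen I, differed between the libraries with 87 and 48 counts and a log2 ratio of 0.86 (adjusted exact binomial p = 0.037). The call was lost with library totals (adjusted p = 0.23), on protein-coding genes alone (0.13), without a count filter (0.40) and with the preset coefficient of variation (1). It was kept at a minimum mean of 50 counts (0.037), with the longest coding isoform (0.037) and with isoforms summed (0.0081).

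Choroid plexus and ependyma were marked mainly by Ttr, transthyretin, with 395 and 153 counts and a density of 2744 ± 471 (SD, n = 2), above Fabp7. Of the 8 markers in that list only Ttr passed the count minimum, and none was at 0 in both libraries. The 10 markers of the oligodendrocyte lineage had 288 and 106 counts and summed densities of 714 and 844, with Olig1, a transcription factor, the densest at 187 ± 9.83 (SD, n = 2). The 8 neuronal markers had 2427 and 842 counts and a median density of 277, with Stmn2 at 2439 ± 340 (SD, n = 2). Tubb3, the neuronal beta tubulin, differed between the libraries with a log2 ratio of 0.33 (adjusted exact binomial p = 0.0037). The call was lost with library totals (adjusted p = 0.68), without a count filter (0.94) and with the preset coefficient of variation (1). It was kept on protein-coding genes alone (0.012), at a minimum mean of 50 counts (0.029), with the longest coding isoform (0.0032) and with isoforms summed (0.0002). Of 5 erythroid genes, the alpha globin Hba-a2 was the densest at 2392 ± 149 (SD, n = 2), and globins are made by red blood cells. How much of the Apoe, Clu, Sparc and Sparcl1 footprints came from these other cells was not tested.

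**Figure D4:**
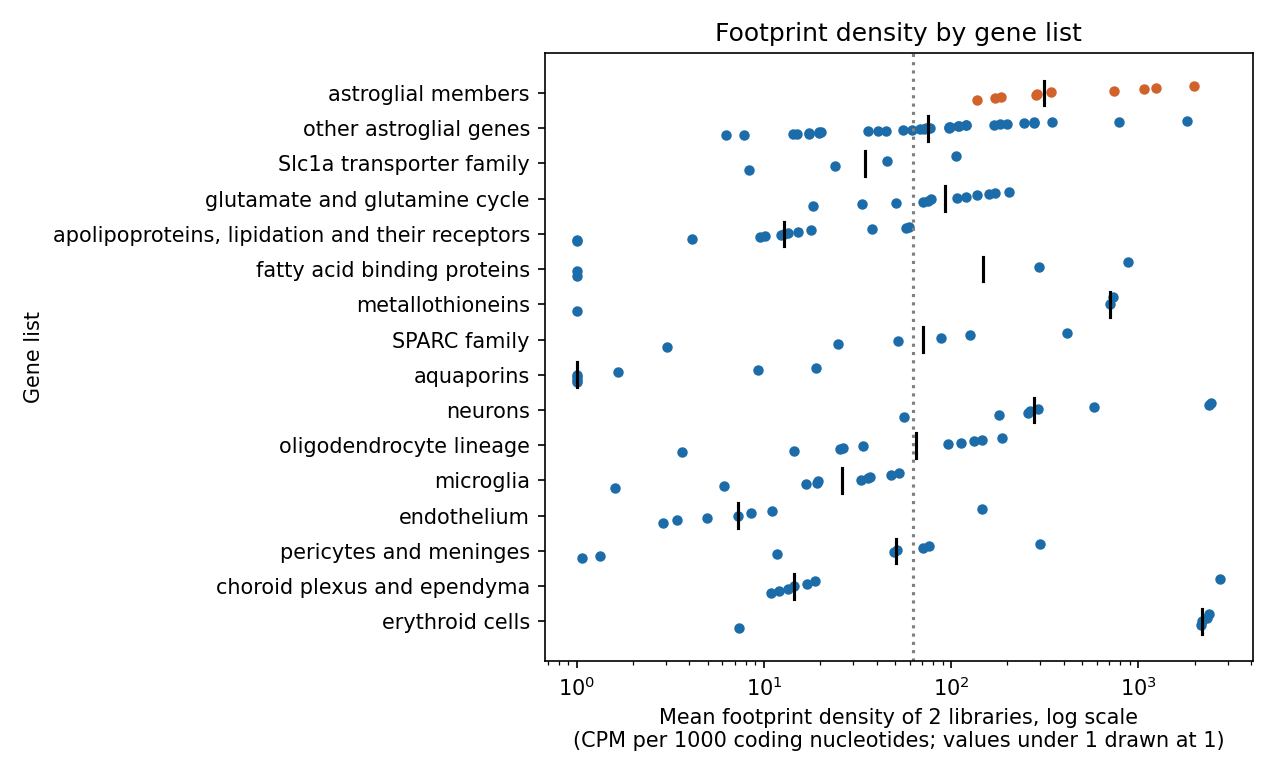
Mean footprint density of the 2 libraries (log scale, CPM per 1000 coding nucleotides, values under 1 drawn at 1) for each gene with a coding length, by list, with the 10 astroglial genes in the top row, a black bar at each list's median and a dotted line at 62.3. The 10 genes lie between 137 and 1989, while the microglial markers all lie below the dotted line.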

How the data were processed

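The authors deposited 1 table of raw footprint counts per transcript for 109463 transcripts, with transcript, coding and untranslated lengths. Trimmomatic 0.36, Bowtie2 2.2.6, SAMtools and the build GRCm38.p4 are named in the submitters' processing notes; the counting tool and annotation release are not given in the sources used here. Columns were matched to replicates by number. A gene was its transcript with the highest summed count, the longer in a tie, and coding if any transcript was. CPM used TMM effective library sizes from edgeR 4.0.16 (R 4.3.3; factors 1.07 and 0.931) from genes averaging 10 counts or more. Log2 ratios were taken after adding 1 CPM, so those of low genes are too small. Exact binomial tests and Clopper-Pearson 95% intervals used scipy 1.17.1, and the test was checked on simulated counts. No quasi-likelihood test was run, since 1 group leaves no contrast. A count of 0 allows up to 3 counts. The 10 genes, 15 further lists (144 genes, all matched) and the rule for named genes (all 10, each list's densest gene, any called gene, the density neighbours of the densest of the 10) were chosen with earlier results of these data known. Alternatives covered scaling, count filter, pseudocount, isoform, length and replicates.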

Additional observations from a re-analysis of the deposited data

How the results depend on the processing

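No paired analysis was possible because the study has a single group. None of the 10 genes was called under library totals, coding genes alone, no count filter, the preset coefficient of variation or the longest coding isoform, and none of the 9 tested at a minimum mean of 50 counts (Aqp4 drops out). With isoforms summed 2 were called, Clu (log2 ratio -0.96) and Fabp7 (0.53); a sum counts a fragment several times, so the test takes copies for independent reads. The log2 ratio of Sparcl1, 0.17, reversed to -0.040 with library totals and to -0.0089 without a count filter. The effect of the filters and the preset coefficient of variation on single genes was added after seeing the data. The share of coding counts, 0.680%, was 0.862% with isoforms summed and 0.525% of all genes, a larger denominator; the range leaving out each replicate was 0.670% to 0.690%. Of the 45 pairs, 39 kept their order by whole transcript length and 43 to 45 under the other lengths, isoforms, scaling and single replicates. The fewest counts, 20 for Aqp4 in replicate 2, limit the ratio of a gene between libraries.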
